A study of Homo sapiens with 15 samples.

Results

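The matrix metalloproteinase (MMP) genes, the ADAMTS genes (a disintegrin and metalloproteinase with thrombospondin motifs) and the genes of their tissue inhibitors (TIMP) were examined in the human synovial cell line MH7A. A gene was included when its symbol in the platform annotation started with MMP, ADAMTS or TIMP followed directly by a number, so ADAMTS-like genes were not included. This gave 43 of 18417 genes on the array: 22 MMP, 17 ADAMTS and 4 TIMP genes. Each gene was read from a probe group called a transcript cluster, and where a gene had several, the brightest was used. MMP7, MMP8, MMP26 and MMP27 did not reach the 20th percentile of their array on 3 of the 15 arrays and were not tested, which left 18 MMP, 17 ADAMTS and 4 TIMP genes, 39 in all, among 16872 tested genes. The MMP23A and MMP23B symbols shared 1 cluster and were left out.

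MH7A is a line of fibroblast-like cells from the synovial lining, immortalised with a viral T antigen. RNA was hybridised from 5 conditions. Cells were given 5 mM glucosamine (GlcN) and alloxan before IL-1β, GlcN before IL-1β, alloxan before IL-1β, IL-1β alone, or none of these (resting cells). IL-1β was used at 15 pg/ml for 13 h and GlcN was added 2.5 h before it. Alloxan, which the labels name as an inhibitor of O-GlcNAc transferase, was added at 5 mM, lowered to 2 mM after 30 min, which the labels describe for its use together with GlcN. Neither GlcN nor alloxan was given without IL-1β on these arrays. Each condition had 3 arrays, 1 from each of experiments 1, 2 and 3, and no label says more about how the cultures of an experiment were separated.

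MMPs are zinc enzymes that are secreted or held at the cell surface as inactive precursors and, once activated, cut collagens and most other matrix proteins. ADAMTS enzymes are secreted and bind the matrix, where some cut the proteoglycans aggrecan and versican, some trim the ends of procollagens and others act on COMP, fibrillin microfibrils or von Willebrand factor. TIMPs block the active site of these enzymes, TIMP3 being the best known inhibitor of ADAMTS4 and ADAMTS5. In arthritis, fibroblast-like synoviocytes are a main source of MMP1, MMP3 and MMP13, and interleukin-1 is a classic inducer of these enzymes.

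The deposited values are log2 signals. Array medians were 6.18 to 6.21 in experiment 1, 7.14 to 7.19 in experiment 2 and 7.49 to 7.54 in experiment 3, so conditions were compared within an experiment. Many dim clusters carried exactly the same value on several arrays of an experiment. ADAMTS1, ADAMTS3, ADAMTS6, ADAMTS12, MMP2, MMP14, MMP15, MMP16 and TIMP1 had 5 distinct values in each experiment, 20.9% of the 43 genes against 19.8% of all genes. In 9 of the 43 (20.9%) at least 1 experiment held 1 value on all 5 arrays, against 10.7% of all genes. Less RNA per cell and fewer cells of a kind cannot be told apart in such bulk samples.

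Differences were tested with limma, with the experiment as a block and p-values adjusted over all 16872 genes (threshold 0.05). The question was which matrix enzymes and inhibitors changed when GlcN, alloxan or both were given to IL-1β-stimulated cells, and whether alloxan altered the response to GlcN. Of the 39 tested genes, 10 passed in at least 1 comparison and 29 in none, and nearly all calls were decreases. How many of all genes passed in at least 1 comparison was not counted, so the count of 10 shows no excess by itself. Cells given GlcN and alloxan had 0 genes higher and 7 lower (17.9%) than IL-1β alone, where 9.06% of all genes were higher and 8.47% lower. GlcN gave 1 higher and 6 lower (15.4%), against 5.29% and 6.62% of all genes. Alloxan gave 1 higher and 7 lower (17.9%), against 6.13% and 7.21%. Adding alloxan to GlcN gave 0 higher and 4 lower (10.3%), against 3.27% and 3.52%, and GlcN in the presence of alloxan gave 0 higher and 3 lower (7.69%), against 1.86% and 1.67%. These comparisons share arrays, those of IL-1β alone among them, and are not independent of each other. The median of the 39 log2 differences was -0.08 for GlcN and alloxan, 0.0017 for GlcN and -0.02 for alloxan, against -0.0029, 0.0069 and 0.01 over all genes. Positive differences numbered 7 of 39 with GlcN and alloxan, 20 with GlcN and 15 with alloxan, against 46.9%, 52.7% and 56.3% of all genes, and 6 of 39 when alloxan was added to GlcN, against 46.4%. In a fit of all arrays without the experiment as a block, 0 of the 39 genes passed in any comparison. Of all genes, 4 passed there with GlcN, 1 with both agents and 0 in the other comparisons. A separate fit took only the groups compared and kept the block, and again 0 of the 39 passed. Of all genes, 276 passed in it with both agents, 11 in the interaction, 1 with GlcN and 0 in the others. In the 6 comparisons between conditions, an unpaired t-test on the deposited log2 values passed 0 of all genes after adjustment, the 39 among them. That t-test is not the study's own, which was run without correction in other software and lists further normalized values, not used here.

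**Figure D1:**
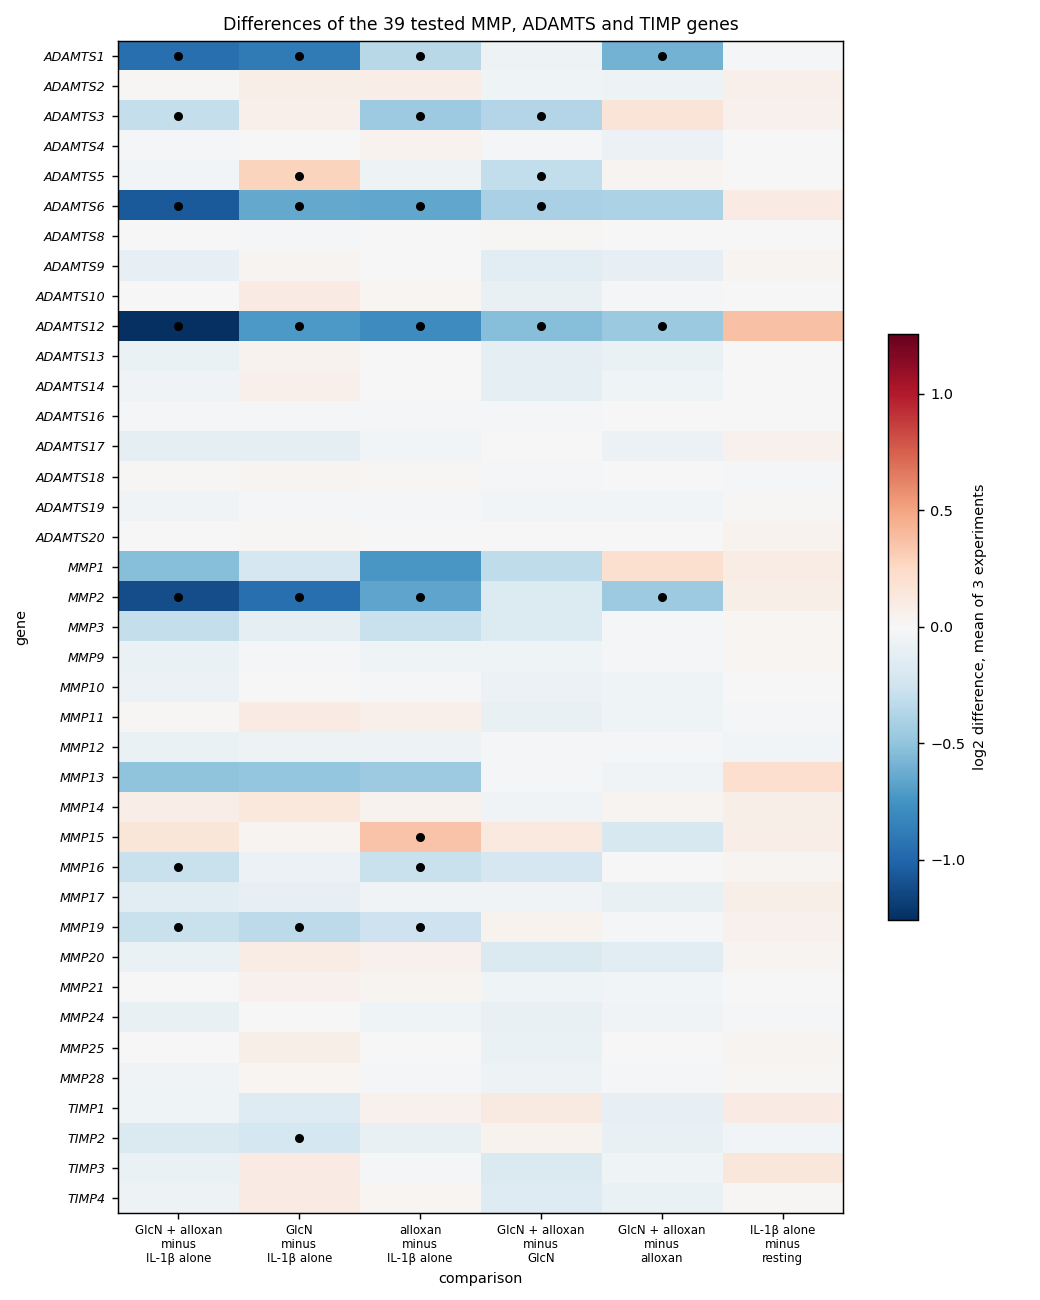
Log2 differences, each the mean of 3 experiments, of the 39 tested genes (rows) in 6 comparisons (columns), blue for lower and red for higher, with a black dot where the limma adjusted p was under 0.05. Dots gather in ADAMTS1, ADAMTS6, ADAMTS12 and MMP2, and the column for IL-1β against resting cells holds none.

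IL-1β alone, set against resting cells, changed no member past the threshold, and 0% of all genes passed in either direction (limma). At an unadjusted p under 0.05, 2 of the 39 genes were higher and 0 lower, against 491 higher and 486 lower among all genes. The smallest p was that of ADAMTS12, with a log2 difference of 0.36 (95% interval 0.13 to 0.60, higher in 3 of 3 experiments, adjusted p = 0.613). TIMP3 had 0.14 (adjusted p = 0.852). Classic IL-1β-responsive enzymes gave no call. The difference was 0.10 for MMP1 (interval -0.52 to 0.72), 0.03 for MMP3 (-0.20 to 0.25) and 0.21 for MMP13 (-0.21 to 0.63). For MMP13 the value rested on experiment 1, and without that experiment it was -0.11.

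ADAMTS12, which cuts the cartilage protein COMP, had the largest decrease with both agents. Its log2 signal in experiments 1, 2 and 3 was 8.19, 9.36 and 9.98 with GlcN, 8.19, 9.34 and 9.79 with alloxan, 7.84, 8.73 and 9.36 with both, 8.79, 10.27 and 10.64 with IL-1β alone and 8.41, 9.99 and 10.22 in resting cells. In every experiment the array with both agents was the lowest, the GlcN and alloxan arrays lay between, and the array with IL-1β alone was the highest. The difference from IL-1β alone was -1.26 with both agents (interval -1.49 to -1.03, 2.39-fold lower, adjusted p = 1.69e-05), -0.73 with GlcN (-0.96 to -0.49, 1.65-fold lower, adjusted p = 0.00119) and -0.79 with alloxan (-1.03 to -0.56, 1.73-fold lower, adjusted p = 0.000758, limma), lower in 3 of 3 experiments each time. The GlcN and alloxan calls were lost without experiment 3 (-0.76 with adjusted p = 0.0566, and -0.76 with adjusted p = 0.0618), while the call with both agents held without any single array or experiment.

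ADAMTS6, the closest relative of ADAMTS10 in the family, was likewise lower with each agent and lowest with both. Its log2 signal was 7.15, 8.16 and 8.53 with GlcN, 7.01, 8.28 and 8.51 with alloxan, 6.75, 7.73 and 8.13 with both, 7.58, 9.02 and 9.16 with IL-1β alone and 7.31, 8.91 and 9.22 in resting cells. The array with both agents was the lowest of its experiment each time, and the highest was IL-1β alone in experiments 1 and 2 and the resting array in experiment 3. The differences from IL-1β alone were -1.05 with both (interval -1.29 to -0.82, 2.07-fold lower, adjusted p = 6.26e-05), -0.64 with GlcN (-0.87 to -0.41, adjusted p = 0.00289) and -0.66 with alloxan (-0.89 to -0.42, adjusted p = 0.00242, limma), with 3 of 3 experiments lower. The GlcN and alloxan calls did not hold without experiment 2 or without experiment 3, where the GlcN values were -0.64 to -0.53 (adjusted p = 0.0779 to 0.0938) and the alloxan values -0.66 to -0.61 (adjusted p = 0.0545 to 0.0807).

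**Figure D2:**
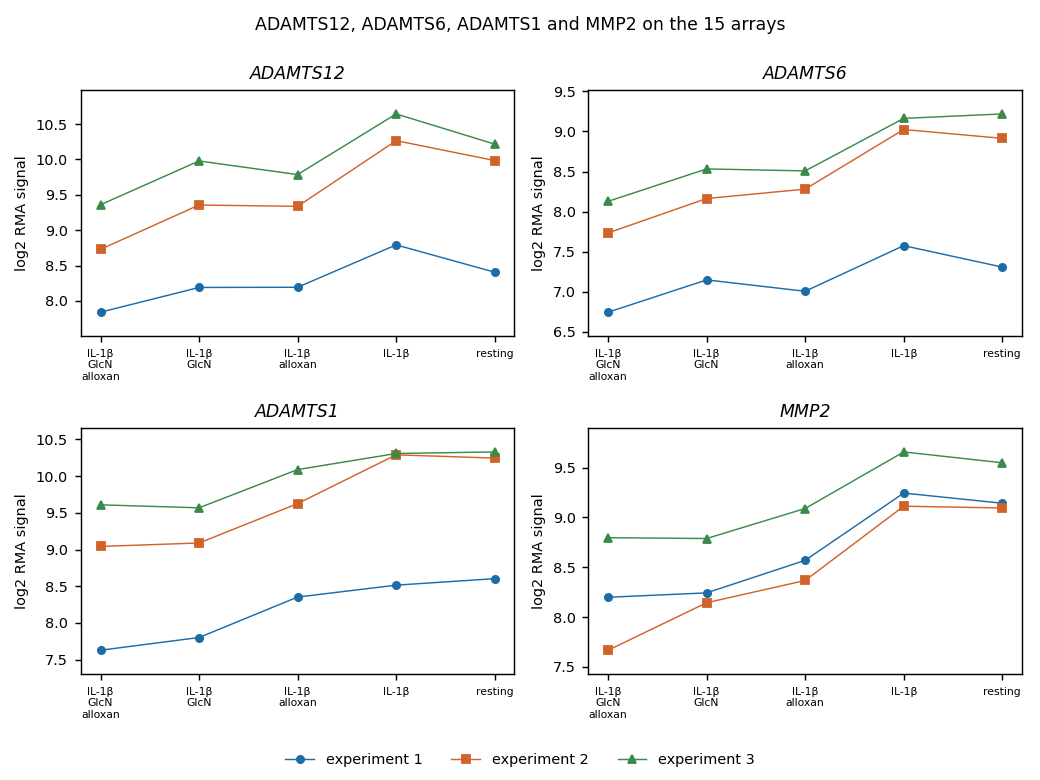
Log2 RMA signal (y axis) of ADAMTS12, ADAMTS6, ADAMTS1 and MMP2 in the 5 conditions (x axis), with a line joining the 5 arrays of each experiment. In each experiment the 3 arrays with GlcN, alloxan or both lie below the array with IL-1β alone.

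ADAMTS12 and ADAMTS6 were both lower in the comparisons with GlcN, alloxan and their combination. ADAMTS3 was lower and MMP15 higher with alloxan. The 250 bases upstream of the RefSeq start of these 4 genes are shown so that the sequence can be set beside the values (RefSeq, GRCh38.p14, each read 5′ to 3′ on the gene's own strand). Promoters were at hand for 25 of the 43 genes. Capitals mark matches on either strand to AP-1 (TGANTCA), a GC box (GGGCGG), the ETS core AGGAAG, the E box CACGTG or the NF-κB consensus, and TATAAA was searched too. The windows are ADAMTS12 at chr5:33891991-33892240 (minus strand), ADAMTS6 at chr5:65481921-65482170 (minus strand), ADAMTS3 at chr4:72569222-72569471 (minus strand) and MMP15 at chr16:58025504-58025753 (plus strand).
ADAMTS12: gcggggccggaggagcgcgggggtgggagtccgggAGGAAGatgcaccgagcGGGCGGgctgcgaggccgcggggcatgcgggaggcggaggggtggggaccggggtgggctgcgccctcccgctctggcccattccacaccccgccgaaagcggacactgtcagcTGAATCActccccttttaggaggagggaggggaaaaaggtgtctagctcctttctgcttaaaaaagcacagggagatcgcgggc
ADAMTS6: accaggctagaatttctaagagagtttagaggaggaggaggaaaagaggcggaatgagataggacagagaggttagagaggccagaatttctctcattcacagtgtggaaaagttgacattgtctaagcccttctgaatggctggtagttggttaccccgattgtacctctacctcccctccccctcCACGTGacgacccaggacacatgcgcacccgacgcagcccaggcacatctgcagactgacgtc
ADAMTS3: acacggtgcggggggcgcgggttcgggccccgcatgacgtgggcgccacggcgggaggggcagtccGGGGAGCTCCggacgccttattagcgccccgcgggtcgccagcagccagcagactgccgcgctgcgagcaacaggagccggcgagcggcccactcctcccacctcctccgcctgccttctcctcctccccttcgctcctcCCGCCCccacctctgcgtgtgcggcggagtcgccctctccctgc
MMP15: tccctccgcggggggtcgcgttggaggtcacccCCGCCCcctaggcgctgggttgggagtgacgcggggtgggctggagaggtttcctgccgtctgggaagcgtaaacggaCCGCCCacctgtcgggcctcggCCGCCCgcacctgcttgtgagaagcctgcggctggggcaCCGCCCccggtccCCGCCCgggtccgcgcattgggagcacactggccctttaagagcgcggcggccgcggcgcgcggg

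None of the motifs searched was found in both the ADAMTS12 and the ADAMTS6 window, whose GC content was 68.4% and 52.4%. ADAMTS12 held 1 AP-1 match, 84 to 78 bases before the start, beside 1 GC box and 1 ETS core. ADAMTS6 held 1 E box only, 63 to 58 bases before the start. ADAMTS3 (75.2% GC) held 1 GC box and 1 NF-κB consensus match, and MMP15 (74.8% GC) held 5 GC boxes. No matches overlapped and TATAAA was in none of the 4. Among 27305 promoter windows of the same 250 bases, 6.6% held the AP-1 motif, 42.3% the GC box, 28.7% the ETS core, 6.49% the E box, 9.57% the NF-κB consensus and 11.1% TATAAA. A match is a run of letters and was not tested for binding.

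ADAMTS1, a protease of versican and aggrecan, fell with GlcN and with both agents by nearly the same amount. Its log2 signal was 7.80, 9.09 and 9.57 with GlcN, 8.35, 9.63 and 10.09 with alloxan, 7.63, 9.04 and 9.61 with both agents, 8.52, 10.29 and 10.31 with IL-1β alone and 8.60, 10.25 and 10.33 in resting cells. The GlcN arrays and the arrays with both agents were the lower ones in each experiment, with the alloxan arrays between them and IL-1β alone. The differences from IL-1β alone were -0.89 with GlcN (interval -1.11 to -0.66, 1.85-fold lower, adjusted p = 0.000297), -0.94 with both (-1.17 to -0.72, 1.93-fold lower, adjusted p = 0.000109) and -0.35 with alloxan (-0.58 to -0.12, 1.27-fold lower, adjusted p = 0.0484, limma), lower in 3 of 3 experiments each. The GlcN call and the call with both held without any array or experiment. The alloxan call was lost without the IL-1β array of experiment 1 or 2 or any of the 3 alloxan arrays (-0.41 to -0.22, adjusted p = 0.0585 to 0.204), without each experiment (-0.44 to -0.19), without the filter on dim genes and with arrays shifted to equal medians.

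ADAMTS5, the main aggrecanase of mouse cartilage, is the protein-coding neighbour of ADAMTS1 on chromosome 21, with 1 annotated gene and 0 protein-coding genes between them, and it was the member higher with GlcN. Its signal was 6.80, 7.67 and 7.59 with GlcN, against 6.61, 7.16 and 7.46 with IL-1β alone, a difference of 0.28 (interval 0.10 to 0.45, 1.21-fold, higher in 3 of 3 experiments, adjusted p = 0.0445, limma). It was 6.45, 7.21 and 7.46 with both agents and 6.36, 7.21 and 7.46 with alloxan, and in experiment 3 both of these arrays had exactly the value of IL-1β alone. Most of the difference came from experiment 2 (0.51, against 0.19 and 0.13 in experiments 1 and 3). The call was lost without the IL-1β array of experiment 1, 2 or 3 or the GlcN array of experiment 1 or 2 (0.19 to 0.33, adjusted p = 0.0506 to 0.201), without each experiment (0.16 to 0.35) and without the filter on dim genes. ADAMTS4, the other classic aggrecanase, had the same value with GlcN as with IL-1β alone in each experiment, namely 5.10, 6.04 and 6.68. These values lay below the medians of the IL-1β arrays (6.21, 7.19 and 7.53), and ADAMTS4 held 3, 2 and 4 distinct values over the 5 arrays. An unchanged value in so dim a cluster does not show that the gene was unresponsive. ADAMTS4 and the other proteoglycan-cleaving genes ADAMTS8, ADAMTS9 and ADAMTS20 passed in no comparison.

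ADAMTS3, which removes the amino-terminal propeptide of procollagens and also processes a lymphatic growth factor, was lower with alloxan but not called with GlcN. Its log2 signal was 6.40, 7.46 and 7.47 with GlcN, 5.82, 7.0 and 6.93 with alloxan, 6.05, 7.12 and 7.06 with both and 6.35, 7.25 and 7.53 with IL-1β alone. The alloxan array was the lowest in every experiment and the GlcN array was above IL-1β alone in experiments 1 and 2 and below it in experiment 3. Against IL-1β alone, the difference was -0.46 with alloxan (interval -0.60 to -0.31, 1.37-fold lower, adjusted p = 0.00116), -0.30 with both (-0.44 to -0.16, adjusted p = 0.00816) and 0.07 with GlcN (-0.08 to 0.21, adjusted p = 0.593, limma). With alloxan and with both, 3 of 3 experiments were lower. Without experiment 1 the alloxan call was lost (-0.42, adjusted p = 0.0629), and the call with both was lost without experiment 1 or 3 (-0.30 to -0.21, adjusted p = 0.106 to 0.131). The other procollagen N-proteinases, ADAMTS2 and ADAMTS14, passed in no comparison.

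MMP2, the gelatinase that digests denatured and type IV collagen, had the largest called decreases among the MMP genes. Its log2 signal was 8.24, 8.14 and 8.79 with GlcN, 8.57, 8.37 and 9.09 with alloxan, 8.20, 7.67 and 8.80 with both, 9.25, 9.11 and 9.66 with IL-1β alone and 9.14, 9.10 and 9.55 in resting cells. In each experiment the arrays with GlcN, alloxan or both lay below those with IL-1β alone and of resting cells. How many of all genes were ordered in this way was not counted. The differences from IL-1β alone were -0.95 with GlcN (interval -1.17 to -0.73, 1.93-fold lower, adjusted p = 0.000132), -0.66 with alloxan (-0.88 to -0.44, 1.58-fold lower, adjusted p = 0.00157) and -1.12 with both (-1.34 to -0.90, 2.17-fold lower, adjusted p = 2.52e-05, limma), lower in 3 of 3 experiments each. The alloxan call was lost without experiment 1 (-0.66, adjusted p = 0.0713), and the other 2 held without any array or experiment. With the unpaired t-test on the deposited log2 values and no adjustment (p under 0.05 and at least 1.5-fold), MMP2 was the member that passed for both agents, among 27 genes in all, and for GlcN, among 47, and none passed for alloxan, among 7. The other gelatinase, MMP9, had differences of -0.08 to 0.03 over the 6 comparisons and passed in none. Its signal with IL-1β alone, 5.38, 6.44 and 6.86, lay below the medians of those arrays (6.21, 7.19 and 7.53).

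**Figure D3:**
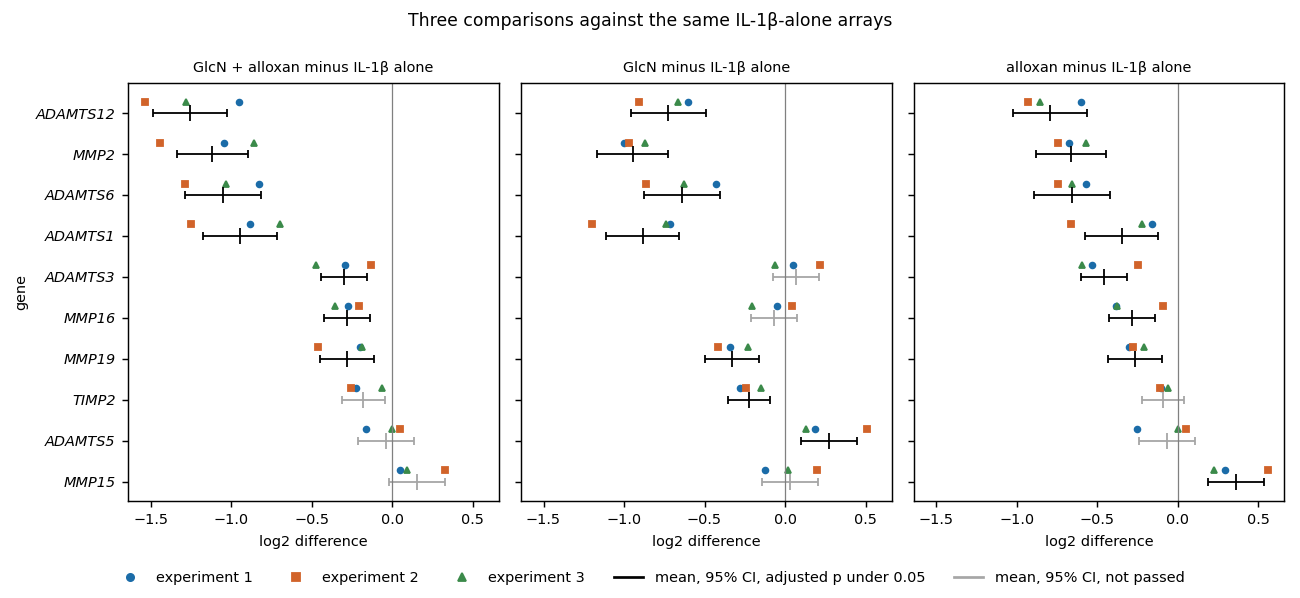
Log2 difference (x axis) from IL-1β alone with both agents, with GlcN and with alloxan for the 10 genes (y axis) that passed in any comparison. Bars give the mean and 95% interval of the fit, black where the adjusted p was under 0.05 and grey where not, and the small symbols give each of 3 experiments. The intervals of ADAMTS12, MMP2 and ADAMTS6 lie below -0.4 in all 3 panels.

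MMP14 and TIMP2, which together activate the MMP2 precursor at the cell surface, gave smaller values. MMP14 was called in no comparison and had 8.73, 9.71 and 10.15 with GlcN, against 8.81, 9.50 and 9.90 with IL-1β alone, a difference of 0.13 (interval -0.02 to 0.27, adjusted p = 0.264, limma). TIMP2 had 11.26, 11.75 and 12.09 with GlcN, against 11.54, 11.99 and 12.24 with IL-1β alone. The TIMP2 difference of -0.22 (interval -0.36 to -0.09, 1.17-fold lower, lower in 3 of 3 experiments) passed with adjusted p = 0.0339. That call was lost without the IL-1β array of experiment 1, 2 or 3 or the GlcN array of experiment 1 or 2 (-0.24 to -0.19, adjusted p = 0.0566 to 0.127) and without experiment 1 or 2 (-0.21 to -0.20, adjusted p = 0.169 to 0.292). With both agents TIMP2 differed by -0.18 (adjusted p = 0.0624), past the threshold with quantile normalization (-0.19, adjusted p = 0.0404) and without its own array of experiment 3.

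Of the other membrane-type enzymes, MMP15 and MMP16 gave small and opposite values with alloxan. MMP17, MMP24 and MMP25 differed by -0.05, -0.05 and 0 with alloxan and were not called. MMP15 had 6.49, 7.53 and 7.89 with alloxan, against 6.19, 6.97 and 7.67 with IL-1β alone, a difference of 0.36 (interval 0.19 to 0.53, 1.28-fold, higher in 3 of 3 experiments, adjusted p = 0.0125, limma). It was the member higher with alloxan, and with GlcN its difference was 0.03 (adjusted p = 0.874). MMP16 had 7.05, 7.88 and 8.44 with alloxan and 7.15, 7.76 and 8.46 with both, against 7.43, 7.97 and 8.81 with IL-1β alone. Its differences were -0.28 with alloxan (interval -0.43 to -0.14, adjusted p = 0.0151) and -0.28 with both (-0.42 to -0.14, adjusted p = 0.0118), lower in 3 of 3 experiments. The second MMP16 cluster differed by -0.27 with alloxan and -0.14 with both, and with the mean over clusters the call with both was lost. The MMP15 call was lost without the alloxan array of experiment 1 or 2 or the IL-1β array of experiment 2 (0.30 to 0.35, adjusted p = 0.0518 to 0.0632) and without each experiment (0.26 to 0.43). The MMP16 alloxan call was lost without the IL-1β or alloxan array of experiment 1 or 3 (-0.27 to -0.24, adjusted p = 0.0566 to 0.0766). The call with both was lost without the IL-1β array of experiment 3 (-0.25, adjusted p = 0.0501). Without experiment 1 or 3 both MMP16 calls were lost (-0.24 to -0.23 with alloxan, -0.28 to -0.24 with both agents).

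MMP19, a secreted enzyme of the basement membrane that was found as an autoantigen in rheumatoid arthritis, was lower in the same 3 comparisons by a small amount. Its signal was 6.41, 7.57 and 7.74 with GlcN, 6.45, 7.70 and 7.76 with alloxan and 6.55, 7.52 and 7.78 with both, against 6.75, 7.98 and 7.97 with IL-1β alone. Each treated array lay below the IL-1β array of its experiment. The differences were -0.33 with GlcN (adjusted p = 0.0168), -0.26 with alloxan (adjusted p = 0.0428) and -0.28 with both (adjusted p = 0.0251, limma), with 95% intervals of -0.50 to -0.16, -0.43 to -0.10 and -0.45 to -0.12. The GlcN call was lost without the GlcN array of experiment 1 or 2 or the IL-1β array of experiment 2 (-0.30, adjusted p = 0.0548 to 0.0811) and without experiment 1 or 2 (-0.32 to -0.28). The alloxan call was lost without any of its 6 arrays (-0.29 to -0.22, adjusted p = 0.0816 to 0.165), without any experiment and with arrays shifted to equal medians. The call with both was lost without any IL-1β array or its own array of experiment 2 (-0.30 to -0.20, adjusted p = 0.0524 to 0.127) and without experiment 1 or 2 (-0.32 to -0.19).

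**Figure D4:**
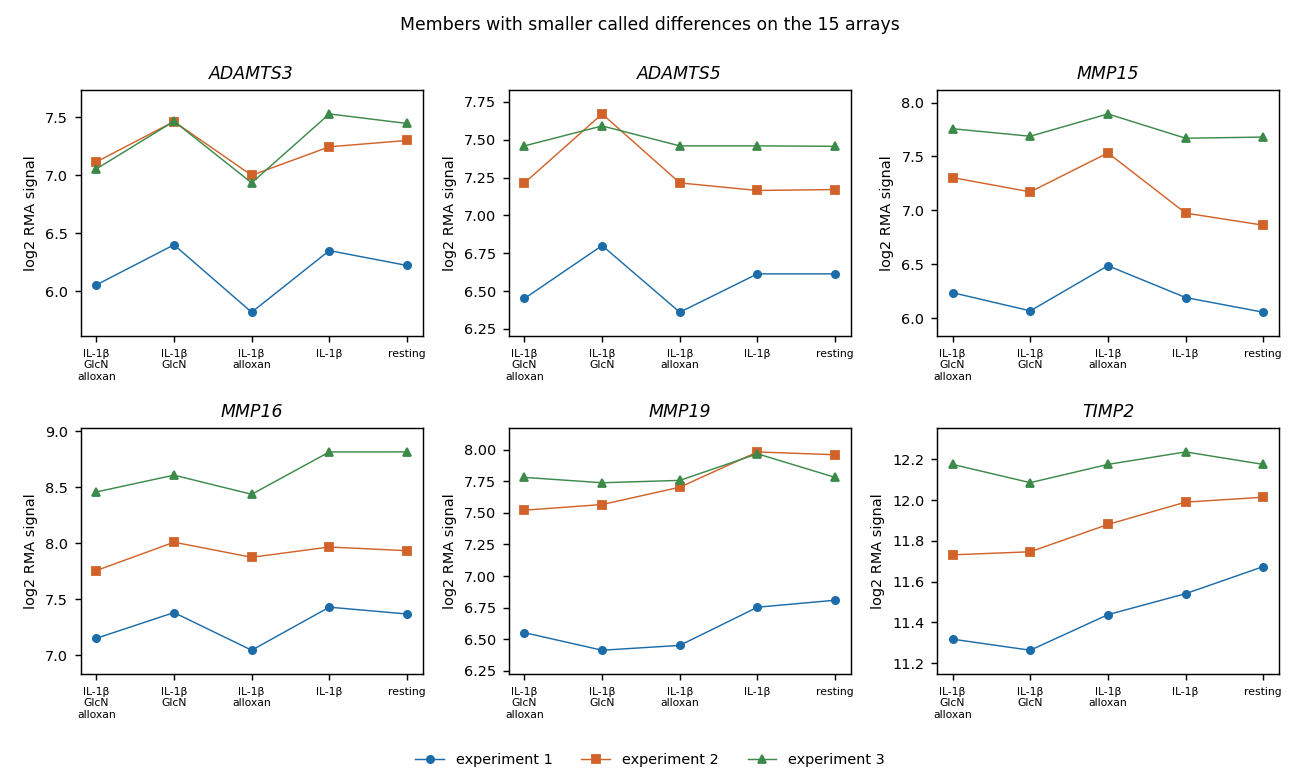
Log2 RMA signal (y axis) of ADAMTS3, ADAMTS5, MMP15, MMP16, MMP19 and TIMP2 in the 5 conditions (x axis), with a line joining the 5 arrays of each experiment. ADAMTS3 dips and MMP15 peaks on the alloxan array of each experiment, and ADAMTS5 peaks on the GlcN array.

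The collagenases and stromelysins that synovial cells are best known for were called in no comparison. The interstitial collagenase MMP1 had 7.93, 8.62 and 9.49 with GlcN, 6.66, 8.18 and 9.65 with alloxan, 7.13, 8.45 and 9.5 with both, 7.13, 9.18 and 10.37 with IL-1β alone and 7.13, 8.68 and 10.58 in resting cells. GlcN was above IL-1β alone in experiment 1 and below it in experiments 2 and 3, while alloxan was below in 3 of 3. The differences were -0.21 with GlcN (interval -0.83 to 0.41, adjusted p = 0.716), -0.73 with alloxan (-1.35 to -0.11, adjusted p = 0.122) and -0.53 with both (-1.15 to 0.09, adjusted p = 0.256, limma). With both agents the MMP1 interval held both 0 and the MMP2 difference of -1.12.

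MMP3, the stromelysin that also activates other MMPs, differed by -0.12 with GlcN, -0.28 with alloxan and -0.30 with both (adjusted p = 0.527, 0.1 and 0.0708, limma). On 3 arrays of experiment 2, those with GlcN, with alloxan and with IL-1β alone, it read 6.81. The cartilage collagenase MMP13 differed by -0.49 with GlcN, -0.45 with alloxan and -0.50 with both (adjusted p = 0.133, 0.156 and 0.102), and the differences came mainly from experiments 1 and 2, where it read 5.09 and 5.82 with GlcN, against 5.95 and 6.37 with IL-1β alone. In experiment 3 it read 6.17 with alloxan, both agents, IL-1β alone and in resting cells. On the IL-1β arrays MMP13 lay below their medians of 6.21, 7.19 and 7.53. Leaving out the IL-1β array of experiment 3 brought MMP13 past the threshold with GlcN (-0.69, adjusted p = 0.0444) and with both (-0.70, adjusted p = 0.0323). MMP3 passed with alloxan without the alloxan array of experiment 2 (-0.39, adjusted p = 0.0399), and with both without its own array of experiment 3 (-0.40, adjusted p = 0.0323) and with the filter at the 50th percentile (-0.30, adjusted p = 0.0469). MMP1, MMP3 and MMP13 belong to a row of 9 MMP genes on chromosome 11. The 6 tested genes of that row gave 0 calls in any of the 7 comparisons, with differences of -0.49 to 0.10 for GlcN, -0.73 to 0.06 for alloxan and -0.53 to -0.07 for both. Of all genes, 5.29% were higher and 6.62% lower with GlcN, 6.13% and 7.21% with alloxan, and 9.06% and 8.47% with both. With shares this low, 0 calls among 6 genes does not set the row apart.

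**Figure D5:**
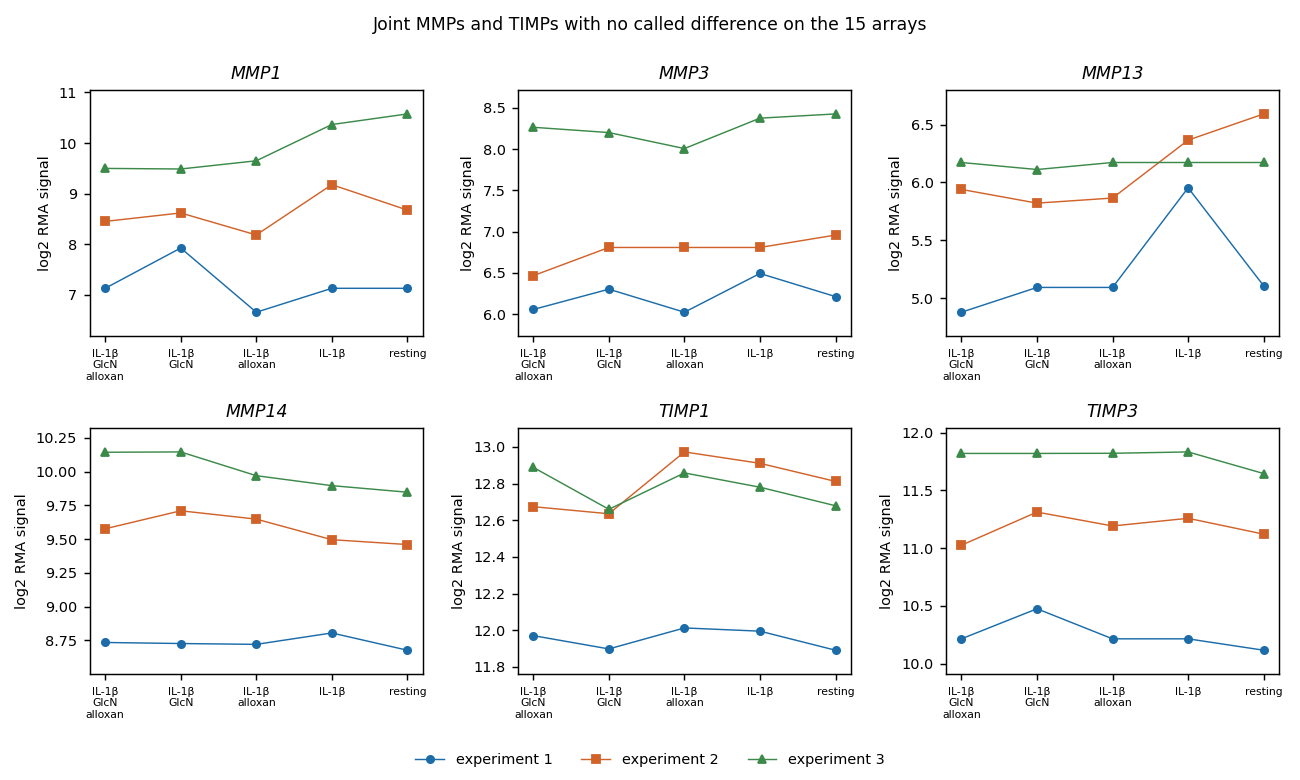
Log2 RMA signal (y axis) of MMP1, MMP3, MMP13, MMP14, TIMP1 and TIMP3, none of which passed in any comparison, in the 5 conditions (x axis), with a line joining the 5 arrays of each experiment. The lines of the experiments do not cross in MMP1, MMP3, MMP14 and TIMP3, and MMP13 in experiment 3 reads 6.17 on 4 arrays.

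Of the TIMPs, TIMP2 with GlcN was the only call in the 7 comparisons. TIMP1, the inhibitor most released by fibroblasts, had 11.90, 12.64 and 12.66 with GlcN, against 11.99, 12.91 and 12.78 with IL-1β alone, a difference of -0.16 in which 3 of 3 experiments were lower (interval -0.31 to -0.02, adjusted p = 0.137, limma). TIMP3 had 10.48, 11.31 and 11.82 with GlcN, against 10.22, 11.26 and 11.83 with IL-1β alone, a difference of 0.10 (adjusted p = 0.374). With alloxan added to GlcN it differed by -0.18 (adjusted p = 0.112). The second TIMP3 cluster disagreed in sign with the first for alloxan, for both agents and for alloxan added to GlcN, where it gave 0.22, 0.12 and 0.06. TIMP4 differed by 0.10 with GlcN and -0.16 with alloxan added to it (adjusted p = 0.405 and 0.172). With alloxan the 4 TIMP differences ran from -0.09 to 0.05, and with both agents from -0.18 to -0.05.

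Cells given both agents were first set against cells given GlcN. This difference is the effect of alloxan in cells that had GlcN. Alloxan without GlcN gave -0.79 for ADAMTS12, -0.66 for ADAMTS6, -0.46 for ADAMTS3 and -0.07 for ADAMTS5. Whether alloxan altered the response to GlcN can be read only from the interaction, given further below. ADAMTS12 differed by -0.53 (interval -0.76 to -0.30, 1.45-fold lower, adjusted p = 0.0133) and ADAMTS3 by -0.37 (-0.51 to -0.23, adjusted p = 0.00766, limma). The ADAMTS6 difference was -0.41 (-0.65 to -0.18, adjusted p = 0.0417) and that of ADAMTS5 -0.31 (-0.49 to -0.14, adjusted p = 0.0381, limma). Each was lower in 3 of 3 experiments. All 4 are ADAMTS genes, and 0 of the 39 genes were higher. ADAMTS1 differed by -0.06 (interval -0.29 to 0.17) and MMP2 by -0.17 (-0.39 to 0.05), so for these 2 genes an increase above 0.17 and above 0.05 lay outside the 95% interval. ADAMTS3 held without any single array but not without any experiment (-0.38 to -0.35, adjusted p = 0.0548 to 0.0985). ADAMTS12 was lost without the GlcN array of experiment 3 or its own array of experiment 2 or 3 (-0.53 to -0.42, adjusted p = 0.0533 to 0.0618) and without experiment 2 or 3 (-0.49 to -0.48). ADAMTS6 was lost without any GlcN array or its own array of experiment 2 or 3 (-0.48 to -0.32, adjusted p = 0.0604 to 0.161) and without experiment 2 or 3 (-0.42 to -0.40). ADAMTS5 was lost without the GlcN array of experiment 1 or 2 or any array with both agents (-0.34 to -0.22, adjusted p = 0.0636 to 0.144), without any experiment (-0.40 to -0.24) and with quantile normalization. With arrays shifted to equal medians, those of ADAMTS3 and ADAMTS12, 2 of the 4, held.

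GlcN was then set against no GlcN in cells that all had alloxan. ADAMTS1 differed by -0.60 (interval -0.82 to -0.37, 1.51-fold lower, adjusted p = 0.00976), ADAMTS12 by -0.46 (-0.69 to -0.23, adjusted p = 0.0362) and MMP2 by -0.45 (-0.67 to -0.24, adjusted p = 0.0306), and ADAMTS6, with -0.40 (-0.63 to -0.16), had adjusted p = 0.0727 (limma). Lower values stood in 3 of 3 experiments for each of the 4. The ADAMTS1 call was lost without the arrays with both agents of experiment 1 or 2 or the alloxan arrays of experiment 1 or 3 (-0.58 to -0.53, adjusted p = 0.05 to 0.0613) and without experiment 1 or 3 (-0.65 to -0.53). The ADAMTS12 call was lost without the arrays with both agents of experiment 2 or 3 or any alloxan array (-0.49 to -0.35, adjusted p = 0.0896 to 0.169), and the MMP2 call without the array with both agents of experiment 1 or any alloxan array (-0.50 to -0.44, adjusted p = 0.0613 to 0.114), and both without any experiment (-0.52 to -0.39 for ADAMTS12, -0.54 to -0.33 for MMP2). The difference between the GlcN responses with and without alloxan, the interaction, passed for 0 of the 39 genes (limma). Over the whole array, 0.0119% of genes passed as higher and 0.0593% as lower. With an unadjusted p under 0.05, the 39 genes gave 2 higher and 2 lower, against 923 and 937 of the 16872 tested genes. The interaction was 0.49 for MMP2 (interval 0.18 to 0.80, adjusted p = 0.28) and 0.29 for ADAMTS1 (-0.03 to 0.61). For ADAMTS12 it was 0.26 (-0.06 to 0.59) and for ADAMTS6 0.24 (-0.09 to 0.58). It was positive in 3 of 3 experiments for MMP2, ADAMTS12 and ADAMTS6. A positive value here means a smaller decrease with GlcN when alloxan was present. Without the array with both agents of experiment 2, MMP2 passed (0.65, adjusted p = 0.0294).

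The other 29 tested genes passed in no comparison. Their differences ran from -0.73 (MMP1 with alloxan) to 0.21 over the 6 comparisons between conditions. Among these 29 genes were ADAMTS13, which acts on von Willebrand factor, and ADAMTS10, whose closest relative ADAMTS6 was called lower.

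Genes that activate, clear or otherwise restrain these enzymes were lower more often than higher. Of 18 tested genes of the plasmin system, the activators and other inhibitors, 0 were higher and 6 lower with both agents, 1 higher and 6 lower with GlcN, and 1 higher and 5 lower with alloxan, with median differences of -0.12, -0.08 and -0.07. Among all genes 9.06% were higher and 8.47% lower with both agents, 5.29% and 6.62% with GlcN, and 6.13% and 7.21% with alloxan. PLAT, the tissue plasminogen activator, differed by -1.09 with both (adjusted p = 3.69e-06), -0.73 with GlcN and -0.58 with alloxan, and THBS1, a matrix protein that binds MMP2, by -0.90, -0.73 and -0.59. PLAU, the urokinase gene, differed by -0.67 with both (adjusted p = 0.000373, limma). TFPI2, an inhibitor of plasmin, was -0.46 with GlcN and rose by 0.31 when alloxan was added (adjusted p = 0.0281). SERPINE2, of the same list, was the gene called higher with GlcN. FURIN, which activates membrane-type MMPs, differed by 0.26 with alloxan (adjusted p = 0.0232), and RECK, a membrane inhibitor of MMPs, by -0.39 (adjusted p = 0.00753).

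Relatives and substrates of the enzymes were counted in the same way. Of 14 tested ADAM and ADAMTS-like genes, 1 was higher and 7 lower with both agents, 1 higher and 4 lower with GlcN, and 0 higher and 7 lower with alloxan (medians -0.17, -0.12 and -0.17), against the same shares of all genes. ADAM12, a membrane protease of mesenchymal cells, differed by -1.3 with both, -0.96 with GlcN and -1.12 with alloxan (adjusted p = 7.67e-05, 0.00102 and 0.000463, limma), and ADAM17, the TNF-α converting enzyme, by 0.28 with GlcN (adjusted p = 0.00418). Of 20 tested substrates, 0 were higher, and 8 were lower with both, 4 with GlcN and 6 with alloxan (medians -0.13, -0.0080 and -0.05), against 8.47%, 6.62% and 7.21% of all genes lower. The fibrillar collagen genes COL1A1, COL1A2 and COL3A1 differed by -0.90, -0.99 and -1.05 with both agents.

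Cell type markers moved beside these results. Of 13 tested fibroblast-like synoviocyte markers, 0 were higher. With both agents 7 were lower, with GlcN 6 and with alloxan 5 (medians -0.31, -0.24 and -0.13), against 8.47%, 6.62% and 7.21% of all genes lower. Among the lower markers, FAP differed by -0.64, -0.82 and -0.49. COL1A1, COL1A2 and COL3A1 were also among them in each of these comparisons. These collagen genes are on the substrate list too, so the counts of the lists overlap. None of 6 macrophage, 4 T cell and 4 chondrocyte markers passed in any comparison. Of 5 endothelial markers 3 were lower with both agents and 2 with alloxan added to GlcN, and of 4 epithelial markers 1 was lower with alloxan. The part of the fibroblast markers in the decreases of ADAMTS12, ADAMTS6, ADAMTS1 and MMP2 was not tested. All 4 T cell markers also reached the level at which genes were tested, so that level does not show whether a cell type is present.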

How the data were processed

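RNA from 15 samples was hybridised to Affymetrix Human Gene 1.0 ST arrays, and the authors deposited log2 values made with Expression Console and RMA per the labels. No version numbers were found for these tools. Of 33297 transcript clusters, 19460 had 1 symbol in the platform annotation, 1754 several and 12083 none listed, and 19429 of the 19460 were named through a gene ID. Clusters with 1 symbol were used, the brightest for each gene, and a gene was tested when at least 3 arrays gave it a value at or above their 20th percentile.

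Log2 values were fitted with limma 3.58.1 in R 4.3.3 (lmFit, eBayes) as 5 condition means plus the experiment number from the sample titles as a block, with Benjamini-Hochberg adjustment over 16872 genes and two-sided tests. The block follows the titles, which give the experiment that 5 arrays share. Deviations from the condition means correlated at 0.41 to 0.739 over 30 pairs of arrays of the same experiment and at -0.551 to 0.00971 over 60 pairs of different experiments. Between the most similar arrays the median absolute difference was 0.0539, and none was taken for a duplicate. Intervals are 95% intervals of that fit. The block takes out differences of level between experiments. The p-values measure only how far the differences between conditions varied over these 3 experiments. That spread was pooled over the 5 conditions, and eBayes drew the spread of each gene toward that of all genes. Part of it may be technical, and precision is limited by how few arrays there are.

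The members and the gene lists were chosen with earlier results of these data known. Named with values were all members past the threshold in any of 7 comparisons, ADAMTS1, ADAMTS6 and ADAMTS12, the 4 TIMPs, and MMP1, MMP2, MMP3, MMP9, MMP13, MMP14, ADAMTS4 and ADAMTS5. Of the other lists (plasmin system and activators, ADAM and ADAMTS-like genes, substrates, and markers of fibroblast-like synoviocytes, macrophages, endothelial cells, T cells, chondrocytes and epithelial cells), up to 4 genes with the smallest p were named per comparison. SERPINE2 was named because it was the gene of its list higher with GlcN. An unpaired t-test on the deposited log2 values (the methods name Student's test, but a further normalization listed with it is not described), other fits, filters and scalings, and each array and experiment left out were run as alternatives. The fit was tested on simulated data. Promoters were searched with Python 3.11.15 and figures drawn with matplotlib 3.10.9.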

Additional observations from a re-analysis of the deposited data

How the results depend on the processing

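No call changed sign under any alternative run. With no replicate block, 0 of the 39 genes were higher or lower in any comparison. The same held with only the groups compared and the block kept, and with an unpaired t-test on the deposited log2 values after adjustment. Without the block the standard error was 0.596 for every gene, whereas with the block it ran from 0.0311 to 0.598 over all genes. In simulated data, 50 genes each were changed 1.2-, 1.5-, 2- and 4-fold. The fit without the block recovered 0 of them at each fold, so its lack of calls cannot speak to single genes. With the block 13, 45, 50 and 49 were recovered, with 10 false calls. Of the 29 calls, 1 kept an unadjusted p under 0.05 without the block, against 27 with only the groups compared and 2 with the t-test. With no filter on dim genes, 0 genes were higher with GlcN, and with arrays shifted to equal medians, 2 were lower when alloxan was added to GlcN. The filter at the 50th percentile and the intensity trend with robust moderation kept 29 of the 29 calls, quantile normalization and the mean over clusters 28. No scaling moved the median of all genes by more than 0.1.

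Leaving out 1 array or 1 experiment, the genes lower numbered 3 to 6 with GlcN, 2 to 6 with alloxan, 4 to 9 with both agents, 0 to 3 with alloxan added to GlcN and 0 to 2 with GlcN in the presence of alloxan, the genes higher 0 to 1 with GlcN, 0 to 1 with alloxan and 0 to 1 in the interaction. Of the 29 calls, 14 held without every single array and 6 also without every experiment: ADAMTS1 and MMP2 with GlcN, and ADAMTS1, ADAMTS6, ADAMTS12 and MMP2 with both agents. Differences that were not called and turned sign in some of these fits were those of IL-1β for ADAMTS6 (-0.038 to 0.19), ADAMTS1 (-0.15 to 0.062) and MMP13 (-0.11 to 0.43), of GlcN for ADAMTS3 (-0.012 to 0.13), MMP15 (-0.053 to 0.11), TIMP4 (-0.0032 to 0.16) and MMP1 (-0.72 to 0.12), of alloxan for ADAMTS5 (-0.13 to 0.025), of both agents for ADAMTS5 (-0.093 to 0.025) and of alloxan added to GlcN for ADAMTS1 (-0.15 to 0.0046). The cause of these changes was not tested.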
